A study of Mus musculus with 14 samples.

Results

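The transcriptome described here is that of wild-type (wt) macrophages that had entered the central nervous system (CNS) when experimental autoimmune encephalomyelitis was at its peak. That disease, raised in mice by immunisation against myelin, serves as a model of multiple sclerosis. The members are the 7 libraries labelled as sorted wt monocyte-derived macrophages of CD45.1 donors, out of 14 libraries in the series, and they were chosen by that label alone. Host mice were irradiated in 2 doses of 5.5 Gy, 24 h apart, and each received 2.5 M bone marrow cells (M for mega) of wt CD45.1 donors together with 2.5 M of mCAT CD45.2 donors. The mCAT donors are given in the labels as CCR2creERT2/+ mcat lsl/wt, that is, heterozygous both for a tamoxifen-inducible Cre recombinase at Ccr2 and for a Cre-dependent catalase sent to mitochondria. All libraries, wt included, carry tamoxifen as the treatment, and every wt macrophage came from a host that had also received mCAT marrow. Strain, sex and age of the mice, and how many animals stand behind a library, are not stated in the labels. Cells were sorted by donor marker, and RNA was turned into libraries by Smart-seq2, a full-length method that does not mark strand, with paired reads of 150 bp.

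Monocyte-derived macrophages arise in the bone marrow as Ly6C-high monocytes, leave it through the chemokine receptor CCR2 and enter inflamed tissue, where they lose monocyte genes and take on macrophage genes over days. In experimental autoimmune encephalomyelitis they present antigen, release cytokines, strip and engulf myelin, and are known to range from inflammatory cells with nitric oxide synthase to cells with arginase. Resident microglia, which come from the yolk sac and are long lived, share many of their genes, so that few transcripts separate the populations in bulk RNA.

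The values are normalised counts, obtained by undoing the log2 transformation of the deposited table, and 12456 genes had a mean of at least 10 over the wt libraries. An estimated 16.5 M (wt 7) to 44.2 M (wt 4) reads lay behind a library. Between 11874 and 12780 genes reached 10 in a library. Across genes, the log2 values of a pair of libraries correlated at r = 0.922 to 0.989, where genes are not independent replicates, and the lowest value was that of wt 1 with wt 7. Libraries wt 2, wt 3, wt 4 and wt 5 correlated with each other at 0.983 or more. wt 1 stood apart in many results below, wt 6 and wt 7 shared several departures, and wt 7 was the shallowest. Many list counts that rest on these libraries are therefore given with and without them. wt 1 to wt 4 carry library codes that begin with C1, and wt 5 to wt 7 codes that begin with C2. There is 1 group and no contrast in these libraries, so no test was made and no p-value is given. SDs are over 7 libraries, which are taken as separate samples although nothing in the labels says that they came from separate animals. In bulk libraries fewer cells of a type and less RNA per cell cannot be told apart.

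Macrophage markers, by which the label was checked, were present, but not all of them in every library. Cd163, a scavenger receptor on the list, was listed at 0 in wt 6, at 2.05 in wt 1 and at most at 45.5, in wt 2. All 20 listed macrophage genes were measured and together held 10.6% of the summed level, where the level is the normalised count divided by transcript length in kb, as a share of the sum over 19858 genes with a length. That share ran from 6.61% to 17.5% between libraries. Much of it was Lyz2, which alone held 2.86% of the level in wt 2 and 12.3% in wt 7. In wt 6 the list held 14.9% of the level. Its 20 genes lay there at a mean of -0.05 on the log2 scale from the mean of all wt libraries. Csf1r, the receptor for the growth factor on which macrophages depend, had 27045 normalised counts in wt 1, a median of 44238 and 64173 in wt 5. Cd68, a lysosomal protein of macrophages, ran from 30599 in wt 1 to 79106 in wt 7. Adgre1, which encodes F4/80, ran from 5486 in wt 1 through a median of 16382 to 27605 in wt 7. The 3 genes were therefore present in every library and lowest in wt 1. Monocyte genes were present as well: Ly6c2 had 54228 to 88171 normalised counts and Ccr2 7578 to 22293.

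Markers of other cells were not all at 0. The summed normalised count of the 20 T cell markers was 3278 to 6980 per library, of the 13 B cell markers 1496 to 4555, of the 11 natural killer cell markers 428 to 2803 and of the 15 neutrophil markers 11085 to 30379. In the neutrophil list most of that sum was S100a8, Csf3r and Mmp8, whereas Ly6g, a defining neutrophil gene, had 1.78 to 30.1. Microglial markers summed to 27444 to 120713 and included Trem2, which macrophages also express. Sall1, a transcription factor that marks microglia, had 7.09 to 36.2, while P2ry12 had 563 to 1453 and Tmem119 550 to 3500. Sums for oligodendrocytes were 4426 to 10607, for astrocytes 3491 to 5723, for neurons 281 to 1139, for endothelial cells 1701 to 5590 and for fibroblasts and pericytes 145 to 462. The largest member of the astrocyte list was Aldoc, at 2201 to 4067, while Aqp4 had 2.69 to 48.3. In the endothelial list the largest was Flt1, at 1011 to 3919, while Cdh5 had 0 to 26.5. The 10 markers of border-associated macrophages summed to 45728 to 85907, most of it from Clec12a, F13a1, Cd38 and Ms4a7. Mrc1, the mannose receptor, had 304 to 959 and Pf4, a platelet chemokine, 235 to 1570. Lyve1 was listed at 0 in 5 of the 7 libraries.

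A small number of transcripts made up much of the summed level. The 100 most abundant genes held 48.9% of it, with an SD of 4.48 percentage points over the libraries, and 109 genes held 50%. The share was 43.6% in wt 1 and 56.4% in wt 7. The 20 most abundant genes fell into lysosomal enzymes and lysozyme, iron storage, antigen presentation, lipid handling and secreted proteins, the cytoskeleton, and the machinery of translation and respiration.

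**Figure D1:**
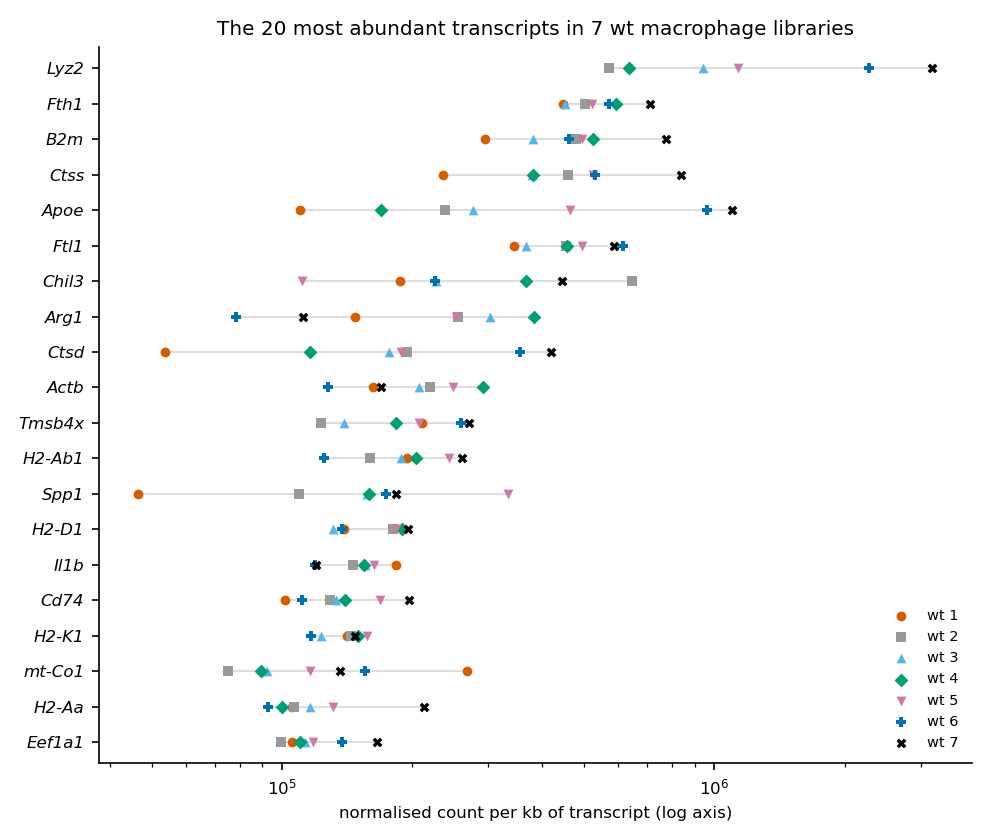
Normalised count per kb of transcript (log axis) of the 20 genes of highest mean level, ordered by that level, with 1 point for each of the 7 wt libraries and a grey line from the lowest to the highest. Lyz2, Apoe and Ctsd spread widely with wt 6 and wt 7 at the top, while H2-K1 and H2-D1 lie close together.

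Lyz2 (ENSMUSG00000069516), which encodes the lysozyme of macrophages, was the most abundant transcript at 6.26% of the summed level. Its normalised count was 837404 in wt 1, 751578 in wt 2, 1237730 in wt 3, 833839 in wt 4, 1491620 in wt 5, 2991170 in wt 6 and 4197780 in wt 7. wt 6 and wt 7 were above all others, and the highest library was 5.59 times the lowest. In shares of a library's level Lyz2 took 3.39% in wt 1, 2.86% in wt 2 and 12.3% in wt 7. Its relative Lyz1 is 95.8% identical over 96.1% of the Lyz2 transcript in GENCODE M21, so reads may have been divided between them. The lysosomal proteases Ctss, which trims the invariant chain for class II presentation, and Ctsd held 2.23% and 1.0%. Ctsd ran from 114523 in wt 1 through a median of 400277 to 892569 in wt 7, a 7.79-fold range, and Ctss from 319889 in wt 1 to 1134070 in wt 7, a 3.55-fold range.

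The iron storage subunits stood second and sixth in level. Fth1, the ferritin heavy chain, held 2.53%, and its normalised count went from 667065 in wt 1 through a median of 779143 to 1058910 in wt 7. Ftl1, the light chain, held 2.21% with a range of 333073 (wt 1) to 594790 (wt 6). Their spread was small beside that of Lyz2, with highest-to-lowest ratios of 1.59 and 1.79. Ftl1 has processed copies in the table that match its transcript at 95% identity or more, so its count is uncertain.

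Antigen presentation supplied 6 of the 20. B2m, the light chain of class I molecules, held 2.28%, followed by the class I heavy chains H2-D1 (0.773%) and H2-K1 (0.656%), the class II chains H2-Ab1 (0.920%) and H2-Aa (0.578%), and Cd74 (0.656%), the invariant chain that guards the class II groove. H2-K1 was the steadiest of the 20 most abundant genes, with normalised counts of 228653, 234360, 199887, 243276, 254674, 189348 and 239684 in wt 1 to wt 7. B2m was less even, from 254008 in wt 1 through 411990 to 664972 in wt 7. H2-Aa was between 104953 and 147860 in 6 libraries and 240739 in wt 7.

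Secreted and metabolic proteins of activated macrophages followed. Apoe, the lipid carrier of macrophages, held 2.22%, with normalised counts of 155390 in wt 1, 335931 in wt 2, 388862 in wt 3, 239018 in wt 4, 652334 in wt 5, 1355800 in wt 6 and 1546230 in wt 7. The order was the same at its ends as for Ctsd, with wt 1 lowest and wt 7 highest, over a 9.95-fold range. Chil3, a chitinase-like lectin, held 1.47% and was highest in wt 2 (990913) and lowest in wt 5 (171348). Arg1, the arginase that breaks down arginine, held 1.02%, with 564824 in wt 4 at one end and 115952 in wt 6 and 165687 in wt 7 at the other. Spp1, which encodes osteopontin, held 0.777% and ran from 70286 in wt 1 to 501456 in wt 5. Il1b, the inflammatory cytokine interleukin 1 beta, held 0.696% and was steady, from 162023 in wt 6 through a median of 209635 to 248872 in wt 1.

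The cytoskeletal genes Actb (0.954%) and Tmsb4x (0.931%), the elongation factor Eef1a1 (0.57%) and the mitochondrially encoded oxidase subunit mt-Co1 (0.623%) completed the 20. mt-Co1 was 413876 in wt 1 and 116205 to 240371 in the other 6 libraries. Eef1a1 and mt-Co1 also have near-identical copies in the annotation, and their counts are uncertain to that extent.

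Spread between libraries was measured as the SD of the log2 value over the 7 libraries and ranked against the 500 genes nearest in mean level. Genes at or above the 95th percentile of their neighbours are termed variable and those at or below the 5th stable. By that rule 650 of 12456 genes (5.22%) were variable and 638 (5.12%) stable, shares that the rule itself largely fixes and that serve as the background for every list below. The median SD was 0.30, and 124 genes (0.996%) had an SD of 1 or more. On this log2 scale the spread of genes with low counts is compressed. For genes with means of 1000 to 10000 the median SD was 0.29, beside a median of 0.033 that counting reads alone would give at the estimated depths. Of 235 processed pseudogenes, 39 (16.6%) were variable. Reads of close copies can be divided between them, and the part of this in the spread of pseudogenes was not tested.

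**Figure D2:**
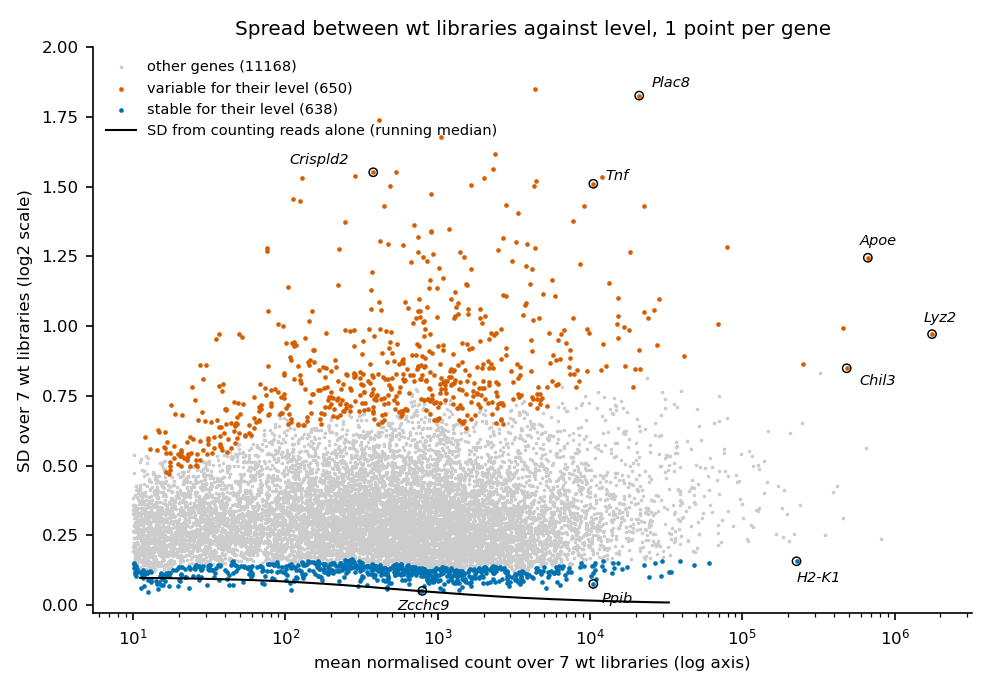
SD of the log2 value over the 7 wt libraries against mean normalised count (log axis), 1 point per measured gene, with the 650 variable genes in orange, the 638 stable genes in blue and the running median of the counting SD as a black line. Plac8 lies near the top, Lyz2 and Apoe are both abundant and variable, and Zcchc9 and Ppib lie at the lower edge.

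Among the variable genes wt 1 was the highest library more often than among all genes. wt 1 was the highest library in 42.0% of the 650 variable genes, against 26.3% of all measured genes, and the lowest in 23.5%, against 27.5%. wt 7 was highest in 19.7% of both the variable and all measured genes, and lowest in 24.3% against 18.0%. wt 4 was highest in 16.3% against 13.8%. wt 6 was highest in 12% against 13.9% and lowest in 18.8% against 15.4%, and wt 3 was highest in 1.38% against 5.56%. Without wt 1, 408 of the 650 remained variable, and without both wt 6 and wt 7, 386 remained.

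Among the 20 named genes of largest excess spread was the monocyte gene Plac8 (ENSMUSG00000029322). Plac8, a gene high in Ly6C-high monocytes, had normalised counts of 60091, 8532, 11519, 38206, 24352, 2264 and 2397 in wt 1 to wt 7 (SD 1.83 on the log2 scale). In this gene wt 6 and wt 7 lay far below the other 5, and wt 1 and wt 4 were highest. Vcan and Ms4a4c, monocyte genes outside those 20, were also lowest in that pair. Vcan, the proteoglycan versican, had 1451 in wt 1, 21.3 in wt 6 and 64.6 in wt 7. Ms4a4c had 7997 and 7836 in wt 6 and wt 7 and 17105 or more elsewhere.

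**Figure D3:**
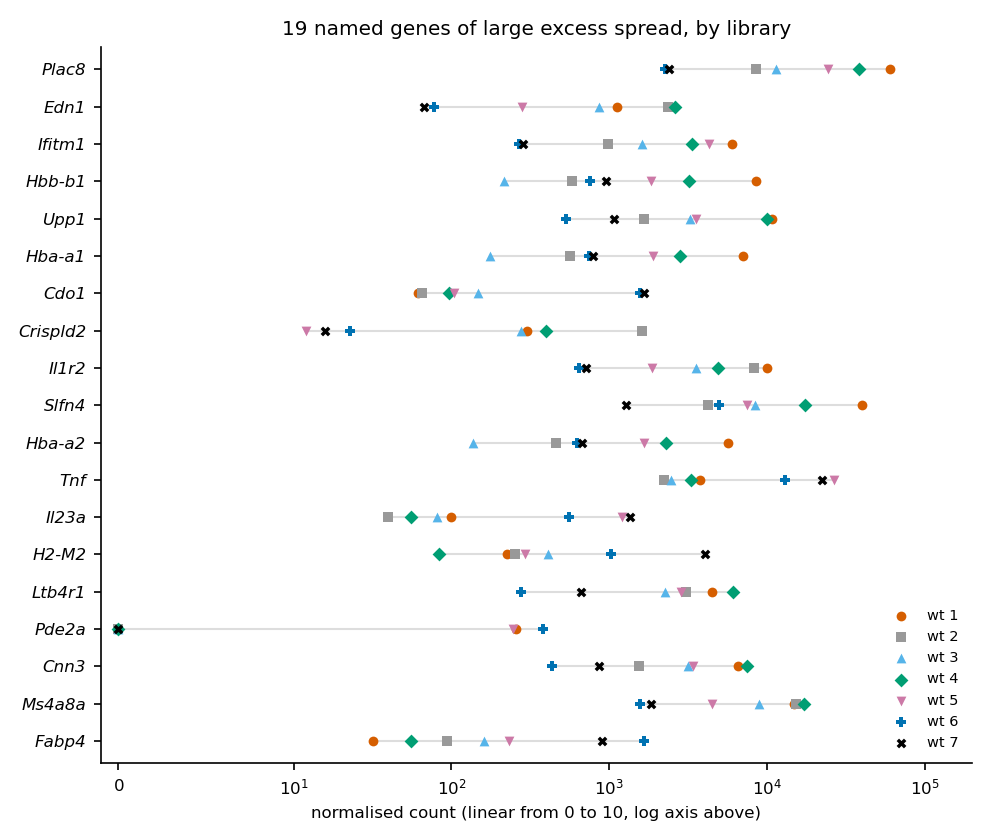
Normalised count by library (axis linear from 0 to 10 and logarithmic above) of 19 named genes with the largest SD above that of genes of like level, in that order, with 1 point for each of the 7 wt libraries. Plac8, Ifitm1 and Il1r2 have wt 6 and wt 7 at the low end, Cdo1 and Fabp4 have them at the high end, and the haemoglobin genes have wt 1 at the high end.

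Of the 15 classical monocyte genes 6 were variable, against 5.22% of all measured genes, and none was stable. The list deviated by -0.92 in wt 6 and -0.46 in wt 7 from the mean of the 7 libraries on the log2 scale, and by 0.57 in wt 1. Monocyte genes did not all spread: Ly6c2 had an SD of 0.26 and Clec4e, a receptor for damaged cells, 0.23, both near the SDs of genes of like level. Ccr2 was lowest in the same pair of libraries, at 7578 in wt 6 and 8114 in wt 7 against 13526 or more elsewhere, with an SD of 0.55 that did not reach the limit. Leaving out any 1 library left 5 or 6 variable members, and without both wt 6 and wt 7 the number was 7.

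Other genes among the 20 named had the same low pair. Ifitm1, an interferon-induced membrane protein, had 5977 in wt 1, 270 in wt 6 and 284 in wt 7. Il1r2, the decoy receptor for interleukin 1, had 9990 in wt 1, 8271 in wt 2, 643 in wt 6 and 719 in wt 7. Ltb4r1, the leukotriene B4 receptor that guides leukocytes, had 6135 in wt 4 and 275 and 661 in wt 6 and wt 7. Ms4a8a, Cnn3, Upp1 and Edn1 also had their lowest counts in wt 6 and wt 7. Edn1, which encodes endothelin, was at 2601 in wt 4 and 67.1 in wt 7, a 38.8-fold range. Crispld2, a secreted protein, was different: 1615 in wt 2, 275 to 399 in wt 1, wt 3 and wt 4, and 12 to 22.7 in wt 5, wt 6 and wt 7, which are the libraries with C2 codes. Pde2a, a phosphodiesterase, was listed at 0 in 4 libraries and at 245 to 379 in wt 1, wt 5 and wt 6. A second gene of that symbol in the table matches it in sequence, so its spread is uncertain.

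Genes of the type I interferon response had the largest variable share among the pathway lists. Type I interferon induces antiviral genes through the factors STAT2 and IRF9, among others, and interferon gamma induces guanylate-binding proteins and immunity-related GTPases. Of 34 measured type I response genes 18 were variable and none stable, with a median SD percentile of 95.4, and 11 were variable without wt 6 and wt 7. The list stood at 0.69 in wt 1, 0.71 in wt 4 and 0.57 in wt 5, at -0.13 and -0.07 in wt 2 and wt 3, and at -0.81 and -0.97 in wt 6 and wt 7. Ifit1, which binds viral RNA ends, had normalised counts of 4069, 3077, 2962, 7414, 6403, 1238 and 908 in wt 1 to wt 7. Isg15, a ubiquitin-like modifier, had 3853, 1682, 1527, 4978, 2768, 835 and 790. Rsad2, which encodes viperin, had 12595, 11495, 7031, 17081, 12798, 2923 and 3314. In all 3 the highest library was wt 4 and the lowest was wt 6 or wt 7. Isg15 has a copy in the table at 95.2% identity over 63.8% of its transcript, so its count is uncertain to that extent. Irf7, the factor that amplifies the response, went from 6455 in wt 7 to 30643 in wt 4. Parp14 and Oas2 had another pattern, with 12068 and 5772 in wt 1 and no more than 2157 and 1693 in any other library.

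Of 25 interferon gamma response genes 10 were variable and none stable. Without wt 6 the number was 7, without wt 1 it was 13, and without wt 6 and wt 7 it was 3, so the count rests on those libraries. Gbp2, a guanylate-binding protein, had 52265 in wt 4, a median of 24060 and 5324 in wt 6. Igtp, an immunity-related GTPase, had 13078 in wt 4 and 2216 in wt 6. Tgtp1 and Tgtp2 were variable as well, but their transcripts are 99.8% identical, so the division of reads between them is uncertain. Cxcl9 and Irf1, both well-known targets, were not variable, with SDs of 0.46 and 0.42.

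Interferon-induced genes are reached through a promoter element, and its core letters were searched in the 250 bases before each start in the RefSeq promoter table of GRCm38.p6, on both strands. The motif was GAAANNGAAA, where matches on the same promoter may overlap, and 3.46% of 27025 genes held it. Of the 18 variable type I response genes 12 were in that table and 5 held the motif, and of the 10 variable interferon gamma genes 6 were in the table and 6 held it. These genes were listed because interferon induces them, so the shares are a description. Of the 20 most abundant, 20 most variable and 20 most stable genes, 15 each were in the table, and 3, 1 and 0 held it. Of all variable genes in the table, 37 of 426 (8.69%) held it. Only members that held the motif could be shown, so the 5 below all hold it by choice. Those 5 were taken because they were highest in wt 4 and lowest in wt 6 or wt 7. The 150 bases before each start are given. They are read 5′ to 3′ on the strand of the gene, and capitals mark the motif or, on the other strand, its complement.
Ifit1 (chr19:34640739-34640888, plus strand): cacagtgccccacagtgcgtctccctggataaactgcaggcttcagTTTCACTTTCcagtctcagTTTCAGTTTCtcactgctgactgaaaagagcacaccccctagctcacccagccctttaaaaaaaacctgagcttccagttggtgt
Isg15 (chr4:156200819-156200968, minus strand): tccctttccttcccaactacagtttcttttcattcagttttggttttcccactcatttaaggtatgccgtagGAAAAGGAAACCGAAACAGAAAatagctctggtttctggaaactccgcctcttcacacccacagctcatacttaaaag
Rsad2 (chr12:26456453-26456602, minus strand): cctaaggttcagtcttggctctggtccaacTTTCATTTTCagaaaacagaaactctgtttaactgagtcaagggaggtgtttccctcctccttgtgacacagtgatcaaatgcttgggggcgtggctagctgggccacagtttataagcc
Gbp2 (chr3:142620513-142620662, plus strand): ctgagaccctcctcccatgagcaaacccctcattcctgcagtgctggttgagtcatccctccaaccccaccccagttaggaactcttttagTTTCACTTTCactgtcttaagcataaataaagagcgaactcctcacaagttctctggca
Igtp (chr11:58199406-58199555, plus strand): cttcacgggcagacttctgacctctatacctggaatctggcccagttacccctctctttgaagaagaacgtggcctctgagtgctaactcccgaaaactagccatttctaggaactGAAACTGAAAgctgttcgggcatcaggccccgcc
Ifit1 held 2 matches in this window and Isg15 held 3 that overlap, while Rsad2, Gbp2 and Igtp held 1 each. A match is not evidence that the site is used in these cells.

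Cytokines and chemokines followed among the pathway lists by share of variable members, and their members did not move together. Of 23 inflammatory cytokines and mediators 11 were variable, and 7 without wt 6 and wt 7. Tnf, the inflammatory cytokine tumour necrosis factor, had 3752, 2217, 2479, 3311, 26486, 12950 and 22448 normalised counts in wt 1 to wt 7. The values of wt 5, wt 6 and wt 7 were above those of wt 1 to wt 4, in a gene that was named for its large spread. Il23a, the specific subunit of interleukin 23, which sustains pathogenic T cells, had 100.1, 39.7, 81.2, 55.7, 1208, 554 and 1361, and Tnfsf9, the ligand of 4-1BB, had 2226 to 2785 in wt 1 to wt 4 and 6791 to 15630 in the others. The 3 genes were thus high in the libraries with C2 codes, and the part that the code series plays was not tested. The share of all measured genes that part the libraries in this way is not given here. Other genes described here, among them Crispld2, Cx3cr1, Olfml3 and Fcrl2, parted the libraries at the same place, Crispld2 in the other direction. That share is not given for them either, and nothing is read from the split in any of these genes.

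Nos2, the inducible nitric oxide synthase, was distributed the other way, with 14757 in wt 4, a median of 8516 and 1091 and 1870 in wt 6 and wt 7. Saa3, an acute phase protein, had 82765 in wt 7, 38562 in wt 6 and 7949 in wt 5. Il10, the anti-inflammatory cytokine, had a low count everywhere, from 30.4 in wt 4 to 495 in wt 7. Il1b, Il1a and Il6, by contrast, were not variable.

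Of 22 measured chemokines 9 were variable and 1 stable, and without wt 6 and wt 7 the number of variable ones was also 9. Ccl2, which draws CCR2-bearing monocytes, had 55769 in wt 4 and 8028 and 6587 in wt 6 and wt 7, and Ccl7, a further CCR2 ligand, had 17293 in wt 4 and 2689 and 2340 in that pair. Cxcl1, a neutrophil attractant, was the reverse, at 1517 and 1993 in wt 6 and wt 7 and 80.6 in wt 4. Cxcl2, a neutrophil attractant of the same receptor, was stable: its 7 values were 31937, 26855, 31529, 30804, 26813, 28749 and 28657. Cxcl1 and Cxcl2 therefore had a 24.7-fold and a 1.19-fold range in the same libraries.

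A further set of genes was highest in wt 6 and wt 7. Of 20 genes of lipid-associated macrophages, cells that take up and process lipid in injured tissue, 8 were variable, and 5 without wt 6 and wt 7. The list stood at -0.75 in wt 1, 0.41 in wt 6 and 0.60 in wt 7. Gpnmb, a lysosomal glycoprotein, had 12616 in wt 1, a median of 63842, 170109 in wt 6 and 143469 in wt 7. Trem2, a lipid receptor, had 5087 in wt 1 and 35870 and 23964 in wt 6 and wt 7. Fabp4, a fatty acid carrier, had 31.8 in wt 1 and 1653 and 899 in that pair. Cdo1, an enzyme of cysteine breakdown, had 1575 and 1675 in wt 6 and wt 7 and at most 148 in any other library. Igf1, a growth factor of repair macrophages, had 681 and 638 in the same pair and at most 128 elsewhere.

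Microglial genes had a like order as a list, at 0.43 in wt 5, 0.69 in wt 6 and 0.65 in wt 7, but not gene by gene. Of 13 markers 6 were variable, and 4 without wt 6. Cx3cr1, the fractalkine receptor, had 847, 1938, 2080, 1243, 5510, 6213 and 8735, and Olfml3 had 1155, 1563, 2727, 1138, 5068, 7899 and 10824. For both genes wt 5, wt 6 and wt 7 were above all others. Fcrl2, the table's name for Fcrls, had 3421, 2457 and 3209 in those 3 libraries and at most 1064 elsewhere. P2ry12 and Sall1 were not variable. P2ry12 had an SD of 0.43 and was highest in wt 6 (1453), and Sall1 had 36.2 in wt 6, 34.3 in wt 1 and 10.8 in wt 7. P2ry13 was lowest in wt 6 (1849), and Tmem119 (3500) and Slc2a5 (188) were highest in wt 5. Siglech had 319 in wt 1 and 324 in wt 6. The part of microglia in the sorted cells of wt 5, wt 6 and wt 7 was not tested.

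Lysosomal genes varied mostly through wt 1. The 28 genes held 5.92% of the summed level, 3.26% in the lowest library and 7.81% in the highest, and the list stood at -0.89 in wt 1 and 0.53 in wt 7. Of the 28, 4 were variable: Atp6v0d2, a proton pump subunit, Cd63, a membrane tetraspanin, Lipa, the acid lipase, and Ctsd. Lipa had 3477 in wt 1 and 8192 to 32600 elsewhere. Without wt 1 the number was 2. Macrophage identity genes gave 1 variable member of 20, Lyz2, a share near the background of 5.22%. The number was 0 without wt 7, 3 without wt 6 and 1 without both. Of the 20, 17 had a larger SD than the median of genes of like level, while Fcer1g and Cd14 had SDs of 0.22 and 0.24.

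Some genes stood out in 1 library. Mitochondrially encoded transcripts were high in wt 1, by 1.11 on the log2 scale over 13 genes, with 4.50% of the level against 1.34% in the lowest library. Of the 13, 3 were variable, 1 without wt 1 and 9 without wt 6 and wt 7. mt-Nd4l was listed at 0 in 5 libraries, so its spread is uncertain. The nuclear-encoded subunits of the same complexes deviated by 0.06 in wt 1. Haemoglobin transcripts were highest in wt 1: Hbb-b1 had 8517 there, 3191 in wt 4, 1835 in wt 5 and 214 in wt 3, and Hba-a1 and Hba-a2, which cannot be separated well by short reads, had 7029 and 5676 in wt 1. Slfn4, a myeloid gene of the interferon response, had 39890 in wt 1 and 1282 in wt 7. Markers of erythroid cells other than the haemoglobins were low or at 0, with Alas2 at 10.5 to 102 and Car1 at 0 in all libraries.

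Cell cycle genes, as a list of 40, were highest in wt 7, by 0.75 on the log2 scale as a mean over genes. As a share of the summed level, in which abundant members weigh most, wt 7 was not highest: it held 0.151%, wt 3 0.193% and wt 6 0.117%. Of the 40, 8 were variable, 11 without wt 1 and 0 without wt 7, so the count rests on wt 7. Ccnb2, a mitotic cyclin, had 534 in wt 7, 3.31 in wt 1 and 61.7 to 169 in the rest, and Ccna2 had 614 in wt 7, 36.8 in wt 1 and 124 to 202 in the rest. The summed normalised count of the 40 genes was 54473 to 86025. H2-M2, a nonclassical class I gene, had 4039 in wt 7, 1032 in wt 6 and 84.1 to 412 in the other 5. Ms4a1, Ighd and Cd79a, genes of B lymphocytes, were highest in wt 5. Cd79a, a part of the B cell receptor, had 190 there and 9.0 to 90.7 elsewhere, and 6 of 9 measured B cell genes were variable, 3 without wt 5. Igkc and Igha, immunoglobulin transcripts, were highest in wt 6 at 758 and 766. Mbp and Mobp, which encode myelin proteins, were highest in wt 4 (4698 and 1909) and lowest in wt 3 (738 and 303). Of the list, 4 of 9 measured oligodendrocyte genes were variable, 2 without wt 4. The part of other cells in these values was not tested.

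**Figure D4:**
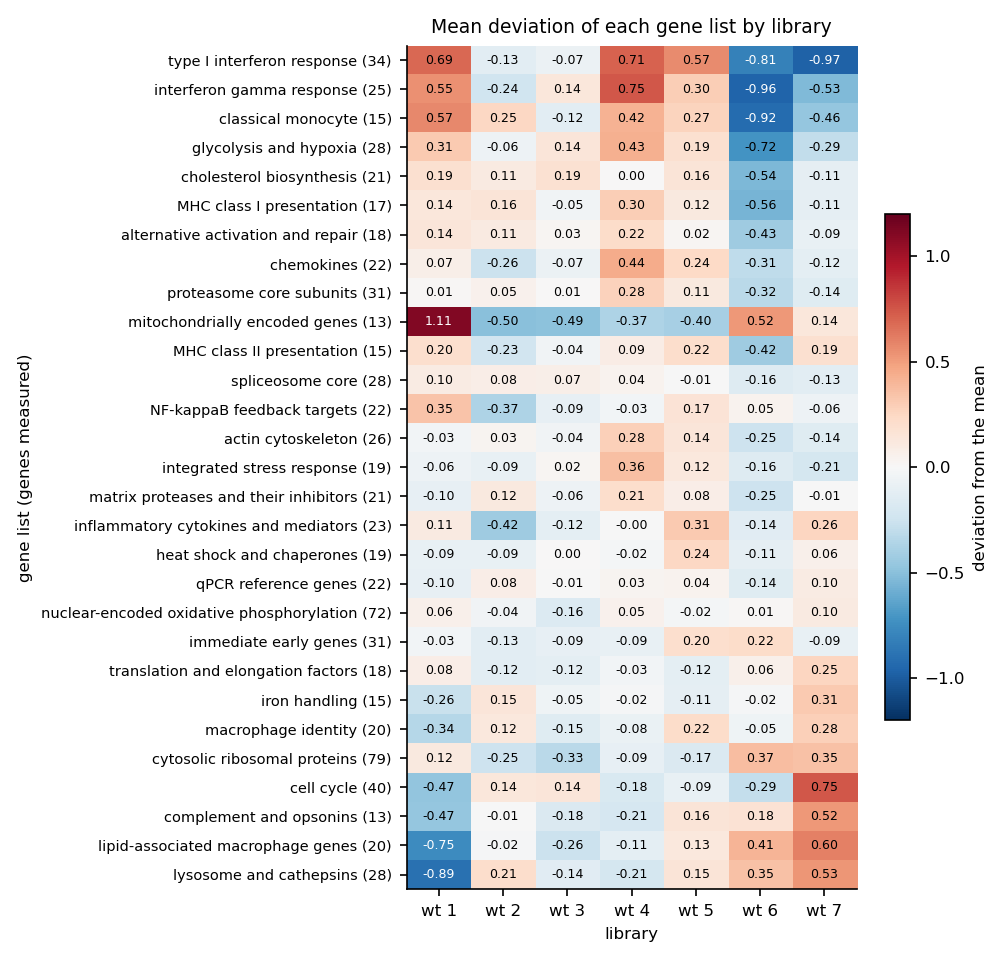
Mean deviation of each gene list (rows, with the number of measured genes) from the mean of the 7 wt libraries, in log2, for each library (columns), with red above and blue below that mean. Interferon and monocyte lists are lowest in wt 6 and wt 7, lysosomal and lipid-associated genes are lowest in wt 1, and mitochondrially encoded genes are highest in wt 1.

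Further lists held variable members too, and their counts are to be read beside the 5.22% of all measured genes that were variable. The smaller counts, such as those of immediate early and heat shock genes, rest on few genes, and little is read from them. Of 28 genes of glycolysis and hypoxia 4 were variable, among them Pfkp, a phosphofructokinase, with 31335 in wt 1 and 4243 in wt 6. The number was 1 without wt 4 and 2 without wt 6 and wt 7. Alternative activation and repair gave 6 of 18, and 4 without wt 6 and wt 7. Tgm2, a transglutaminase of that list, had 140606 in wt 4 and 21901 and 22522 in wt 6 and wt 7. Matrix proteases and their inhibitors gave 7 of 21, led by the gelatinase Mmp2, which had 3725 in wt 7 and 147 in wt 1. Immediate early genes gave 4 of 31, including Egr1, with 5413 in wt 6 and 738 in wt 1. Iron handling gave 4 of 15 and heat shock genes 2 of 19. Those were the inducible chaperones Hspa1a, with 43851 in wt 5 and a median of 7561, and Hspa1b.

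At the other end, 7 lists of basic machinery had no variable member. They were 72 nuclear-encoded subunits of oxidative phosphorylation, 79 cytosolic ribosomal proteins, 18 translation factors, 26 actin cytoskeleton genes, 31 proteasome subunits, 28 spliceosome genes and 21 cholesterol biosynthesis genes. Beside the 5.22% of all genes that were variable, a count of 0 is little below the background in the 5 lists of 31 genes or fewer. The median SD percentile was 23.2 for oxidative phosphorylation, 47.6 for ribosomal proteins and 60 for cholesterol biosynthesis. Leaving out single libraries kept the count at 0 except for 1 actin gene without wt 6 and 1 cholesterol gene without wt 1. Oxidative phosphorylation had 13 stable members, 18.1% of the list against 5.12% of all genes, and 8 without wt 1. With the median absolute deviation in place of the SD the number was 4 of 72, near the background. Ribosomal proteins had 6 stable members of 79, a share near the background, 2 without wt 1 and 3 without wt 4. The proteasome had 3 of 31, 1 without wt 1, wt 5 or wt 7 and 5 without wt 4 or wt 6. Cox8a, a subunit of cytochrome oxidase, had 11044, 11963, 10229, 11541, 11067, 10312 and 10131 normalised counts. Sdhb, a subunit of succinate dehydrogenase, had 9032 to 11068.

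The 20 most stable named genes were of mixed function, and no theme was tested. Zcchc9, a zinc finger protein, had normalised counts of 775, 841, 812, 792, 752, 759 and 812 in wt 1 to wt 7, an SD of 0.051 on the log2 scale. Cdk7, a kinase of the cell cycle and of transcription, had 1083, 1053, 1107, 1147, 1031, 1034 and 1123, with an SD of 0.054. No library stood out in either gene, and their highest values were 1.12 and 1.11 times their lowest. Mrps15, Mrpl18 and Mrpl22 encode mitochondrial ribosomal proteins, Exosc7 an exosome subunit, Rnaseh2c a subunit of ribonuclease H2, Coil the protein of Cajal bodies and Arpc5l a subunit of the actin-nucleating Arp2/3 complex. Cbx1, a heterochromatin protein, Ech1, Atxn3, Rpf1, Mtrfr, Oser1, Abitram, Spryd4 and Myoz1 completed the set, whose SDs ran from 0.051 to 0.090. Sap18b has a copy, Sap18, that is identical over 98.9% of its transcript, so its evenness may not be that of 1 gene. The same holds for Oser1, which has a copy at 99.8% identity over 51.5% of its transcript. Mrpl22 has a copy at 97.1% identity over 86.0% of its transcript, which is not among the deposited genes. Ppib, the cyclophilin of the endoplasmic reticulum, combined a high level with a low spread: 9916, 11036, 10073, 10971, 11270, 10053 and 10245, an SD of 0.076.

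Genes used as references for quantitative PCR differed widely in spread, and 2 of 22 were stable, Ppib and Rplp0. Rplp0, a ribosomal protein, had 53246 to 71931, an SD of 0.15, and Ppia, another cyclophilin, 42534 to 61472, an SD of 0.19. Hprt1, the table's name for Hprt, had an SD of 0.21. The usual choices spread more. Gapdh had 78116 in wt 6, a median of 131258 and 165075 in wt 4, an SD of 0.35, and Actb 245459 in wt 6, a median of 399236 and 561260 in wt 4, an SD of 0.40. Pgk1 (SD 0.48) was lowest in wt 6 at 15399, and Tfrc (SD 0.51) highest in wt 1 at 662 with a median of 218. Tbp had 313 in wt 1 and 619 to 815 elsewhere. None of the 22 was variable. Rplp0 and Pgk1 have close copies in the table, at up to 98.7% identity for Rplp0 and at 100% for Pgk1, so their counts are uncertain to that extent.

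**Figure D5:**
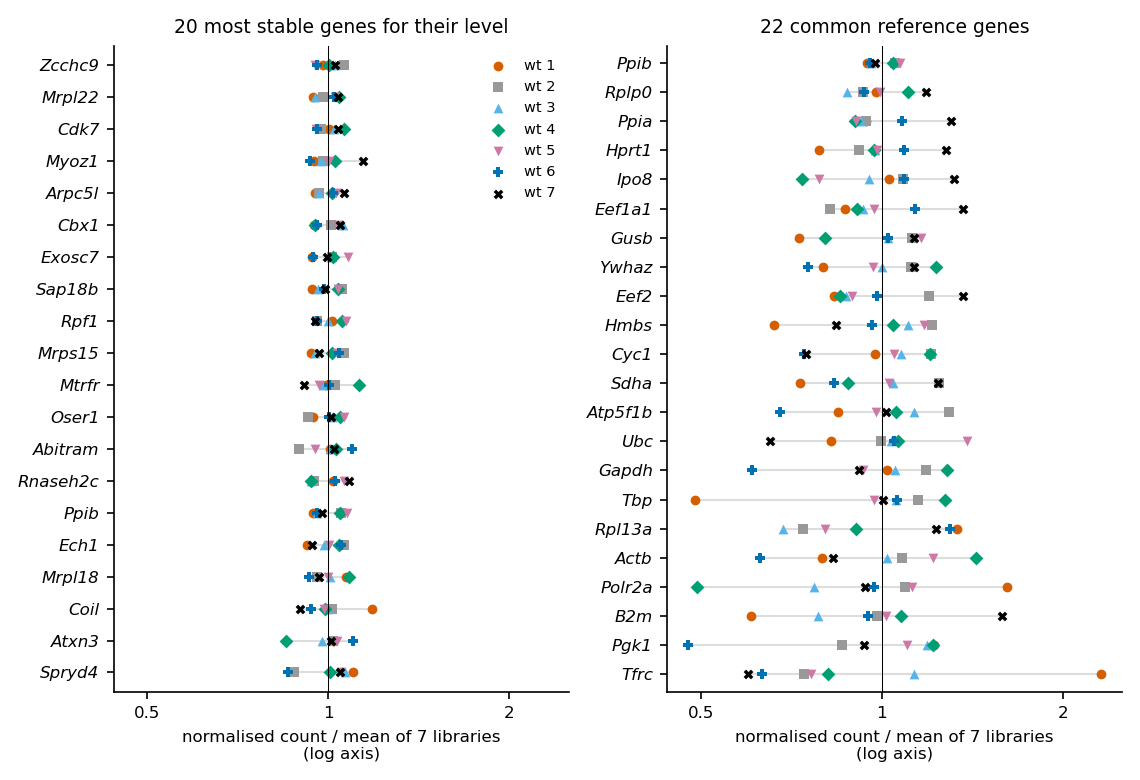
Normalised count of each library divided by the mean of the 7 wt libraries (log axis) for the 20 most stable named genes (left) and 22 common reference genes (right), each ordered by SD, with 1 point per library. The stable genes lie close to 1, Ppib and Rplp0 head the reference genes, and Pgk1 and Tfrc lie at the foot.

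The same measure was taken in the 7 mCAT libraries, which the choice of variable and stable genes did not use. Of the 650 variable genes 326 (50.2%) were also variable there, against 5.10% of all genes, and all 20 of the named ones were. Of the 638 stable genes 84 (13.2%) were also stable there, against 5.23%, and 5 of the 20 named ones. The 2 sets are not independent. The library codes of 6 wt libraries share a stem with those of 6 mCAT libraries, and the labels do not say what a shared stem means. Plac8 had 2264 in wt 6 and 2221 in the mCAT library of the same stem, 2397 in wt 7 and 3188 in its partner, and 8532 to 38206 in wt 2 to wt 5 with 7673 to 32317 in their partners. Levels of the 2 genotypes are not compared here.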

How the data were processed

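Salmon, FastQC and fastp are the tools listed in the submitters' processing notes, with GRCm39 as the build. The deposited table holds 19940 genes and is titled raw counts, but per the file itself its values are log2 values in which all libraries share 1 lowest value, the form of a variance-stabilising transformation. Its versions, annotation and filters are not known here. The transformation was undone in closed form, with the constant taken from that lowest value, to give normalised counts, scaled between libraries and not whole reads. Depth was estimated from the most frequent low count and is rough, and intervals from it would cover counting error only. Levels were divided by the longest basic transcript of GENCODE M21, whose build is GRCm38, so no coordinates of that annotation are printed. Spread was the SD of the log2 values over the 7 libraries, ranked among 500 genes of like level (250 on each side), for genes with a mean of at least 10.

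Named genes were the 20 highest levels, and the 20 largest excess SDs and 20 lowest SD percentiles at a mean of at least 100, leaving out predicted genes, pseudogenes and IDs with no symbol (6 passed over among the variable genes and 0 among the stable ones). Also named were measured reference genes, members of 30 pathway and 17 marker lists, and some genes chosen after their values were seen: Cxcl2 and the other members described in full beyond the most and least variable and most abundant of a list. Some genes, 1 of them among the 20 most variable, are not reported here by name. The group and the lists were chosen with earlier results of these data known. Copies were sought with blastn among GENCODE M21 transcripts, at 95% identity or more over 50% of the query or more. Scripts ran in Python 3.11.15 with pandas 2.3.3 and numpy 2.4.6 and were tested on simulated data. Alternatives covered the filter, scaling, measure of spread, number of neighbours, length and each library left out.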

Additional observations from a re-analysis of the deposited data

Results flagged for a closer look

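Among 87 named abundant, variable, stable and reference genes and 45 gene lists, 5 had a library far from the other 6, judged by the gap to the nearest library as a share of the whole range of log2 values. Chance gives about 1 in 20, and the 3 genes and 2 lists flagged are no more than that. H2-Aa was highest in wt 7, with a gap of 0.587 of the range (240739 normalised counts against a median of 120089). Tbp was lowest in wt 1, with a gap of 0.698 (313 against a median of 674). Pgk1, whose count is uncertain because of close copies, was lowest in wt 6, with a gap of 0.626 (15399 against a median of 35571). The cholesterol biosynthesis list was lowest in wt 6, with a gap of 0.587 and a deviation of -0.54 on the log2 scale. The fibroblast and pericyte markers were highest in wt 1, with a gap of 0.684 and a deviation of 0.58.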

How the results depend on the processing

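The 100 most abundant genes held 48.9% of the summed level and 41.0% with no division by length. With each library left out they held 47.4% to 49.8%. Of the 20 most abundant genes, 17 to 20 stayed in that set in all alternatives. Of 650 variable and 638 stable genes, 322 and 154 remained with the median absolute deviation in place of the SD, and 408 to 598 and 296 to 514 with each library left out, lowest in both cases without wt 1; without wt 7, 375 stable genes remained. Without both wt 6 and wt 7, an alternative chosen after seeing the data, 386 variable and 248 stable genes remained, and 173 genes were variable in both genotypes in place of 326. The 20 named variable genes all remained except with the median absolute deviation (17) and without wt 6 and wt 7 (16), and the 20 named stable genes all remained except with the median absolute deviation (11). Lists deviated by 0.5 or more in 42 of 315 list and library combinations, and in 37 with the median over a list. Recentring on the median gene left 42. Low counts limit the spread that can be seen on the log2 scale, and wt 7, at an estimated 16.5 M reads, adds most counting error. No paired analysis was possible because the libraries described form 1 group and no test was made.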

Other observations

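The table holds 2 rows for Nnt, the mitochondrial transhydrogenase, whose transcripts in GENCODE M21 are identical over most of their length. The row ENSMUSG00000025453 had 227 to 654 normalised counts in the wt libraries. The row ENSMUSG00000116207 was listed at 0 in wt 1, at 1043 in wt 7 and at 276 to 493 in the other 5.

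Transcripts of Y-linked genes were traces at most. Eif2s3y had 17.2 normalised counts in wt 2 and 7.59 in wt 4 and was listed at 0 in the other 5 wt libraries, and Ddx3y had 8.24 in wt 2 and 9.86 in wt 4 and was listed at 0 elsewhere.

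Among 37 unprocessed pseudogenes 7 were variable (18.9%) and 2 stable (5.41%), beside 4.87% and 5.21% of 12074 protein-coding genes.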
